A study of Mus musculus with 4 samples.

Results

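The minor spliceosome RNAs U11 and U12 were followed through 4 sequencing libraries from mouse embryonic stem cells. The 2 genes, Rnu11 and Rnu12, were taken by name from 20793 gene names listed in 2 deposited tables, and both genes appear in both tables. The cells, from C57BL/6 mice and at passages 25 to 30, were kept on gelatin in LIF and serum with no feeder layer. They carried mutant Dis3l2 with a FLAG tag, introduced by transfection, or had a mock transfection; the labels name neither the mutation nor the promoter of the construct, nor whether the cells are 1 clone. From each transfection, 1 library was made from input RNA selected with Ribominus, which depletes ribosomal RNA (mutant input and mock input). Another was made from the RNA that stayed on beads of anti-FLAG M2 affinity gel (mutant IP and mock IP). This mock library shows what the gel holds in cells without the tagged protein. The labels do not say that the IP RNA was depleted of ribosomal RNA, so IP over input also sets differently prepared RNA against each other.

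The spliceosome is the machine that removes introns from messenger RNA precursors, and it is built from small nuclear RNAs (snRNAs) bound by proteins. Most introns are removed by the major spliceosome, in which U1 recognises the 5′ splice site and U2 the branch point. A small class of introns, called U12-type, is removed by the minor spliceosome, in which U11 takes the part of U1 and U12 the part of U2. U11 and U12 bind an intron together, as 1 particle. Both are made by RNA polymerase II, trimmed at the 3′ end and assembled with a ring of Sm proteins. Dis3l2 is an exoribonuclease that degrades RNA from the 3′ end and prefers RNA with added uridines.

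Values are those the authors deposited, which are whole reads divided by 1 factor per library: 1.8 for the mutant input, 2.7 for the mutant IP and 2.5 for both mock libraries. They are not divided by transcript length, so levels are compared between libraries and not between genes. Depth ran from 2157604 to 3183346 reads per library for noncoding RNAs and from 291175 to 2275647 for mRNAs. Each group is 1 library, so there is no test and no p-value. Brackets after a fold give an exact 95% interval from the recovered reads, which compares these libraries and covers counting error of reads only. Copies made by PCR are not independent molecules, so these intervals can be too narrow. All 9 embryonic stem cell markers had reads in the mock input, and 1 of them, Esrrb, had 0 in the mutant input; together they had 168 mock input reads and 128 mutant input reads. Of other cell types, the mesoderm markers T and Mixl1 were at 0 in both inputs, the 3 listed of 5 fibroblast markers had 10 mock input and 16 mutant input reads, the 2 listed of 4 endoderm markers 0 and 2, and the 3 neural markers 16 and 16.

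Rnu11 was abundant in the inputs and scarce in both IPs. In the noncoding table the mock input held 2239 reads of it, the mutant input 2138, the mock IP 33 and the mutant IP 101. These reads correspond to deposited values of 895.6, 1187.78, 13.2 and 37.41. On the deposited scale Rnu11 was thus lowest in the mock IP and highest in the mutant input, while by reads the mock input was highest.

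Rnu12 had fewer reads than Rnu11 in the inputs and more in the IPs. The mock input held 265 reads of it, the mutant input 476, the mock IP 69 and the mutant IP 187, or deposited values of 106, 264.44, 27.6 and 69.26. Both genes therefore stood higher in each input than in either IP and, on the deposited scale, higher in each mutant library than in its mock library, but the steps between the libraries differed.

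The rows of the noncoding table with the nearest profiles to each gene were looked up. Profiles were compared by the root mean square difference of log2(value + 1), centred on each feature's own mean over the 4 libraries, among features with at least 20 reads in every library. Of 863 features, the nearest to Rnu11 was Gm28872, at 0.17, with 2329 and 2131 reads in the mock and mutant inputs and 28 and 78 in the mock and mutant IPs. The nearest to Rnu12 was Gm24525, at 0.08, with 231, 394, 54 and 171 reads in that order of libraries. RefSeq classes Gm24525 as an snRNA gene, and in that annotation it is not next to Rnu12. Next in order for Rnu11 came Gm10062 at 0.19 and Gm17300 at 0.22, and for Rnu12 Gm12207 at 0.21 and Gm17146 at 0.27. Rnu12 itself was the 92nd nearest of the 863 to Rnu11, at 1.81, and Rnu11 lay closer to the U1 RNA Rnu1a1, which was 29th at 0.88. Seen from Rnu12, Rnu11 was the 760th nearest, the U2 RNA Rnu2-10 the 348th at 0.87 and Rnu1a1 the 629th at 1.28. The 2 RNAs of 1 particle thus were not among each other's nearest profiles.

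The reads of these pairs of rows added up to the gene's own row in the mRNA table. Rnu11 and Gm28872 together had 4568, 4269, 61 and 179 reads, and the Rnu11 row of the mRNA table had 4525, 4241, 61 and 177, with the libraries ordered as before. Rnu12 and Gm24525 together had 496, 870, 123 and 358, against 485, 848, 128 and 361 in the Rnu12 row of the mRNA table. The sums differed from the mRNA table by 0% to 1.13% for Rnu11 and by -3.91% to 2.59% for Rnu12. The sources used here do not say how reads that fit several places were counted, and whether the same reads were divided between the paired rows was not tested. The paired rows and the mRNA table row are therefore not treated as independent observations. Similar folds in the paired rows follow from their choice by likeness of profile. The mRNA table rows, with about as many reads as both noncoding rows, give the narrower intervals.

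**Figure D1:**
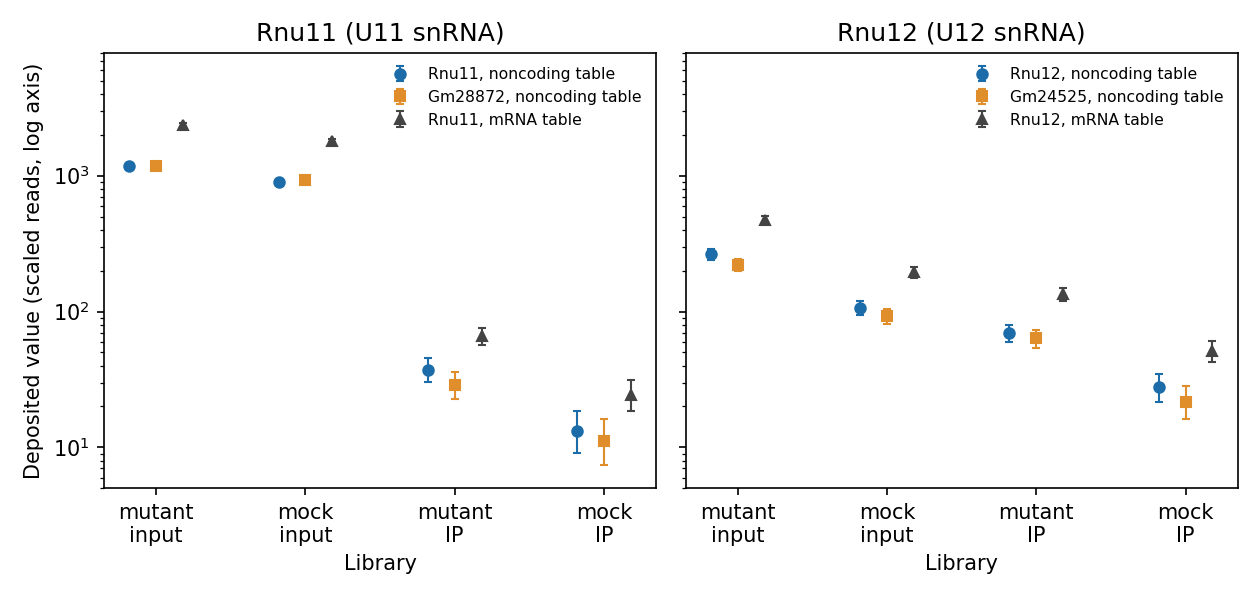
Deposited values (whole reads divided by the library's factor, log axis) of Rnu11 and Rnu12 in the 4 libraries, for the noncoding table row, the row with the nearest profile and the mRNA table row. Points are single libraries and bars exact 95% Poisson intervals of the read count; the mRNA row stands above the paired noncoding rows in each library, and Rnu11 drops from 895.6 in the mock input to 13.2 in the mock IP while Rnu12 drops from 106 to 27.6.

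The mutant IP was set against the mock IP to ask which RNAs were recovered with the tagged protein. Both minor spliceosome RNAs were higher in the mutant IP, by similar folds. Rnu11 was 2.83-fold higher (1.90 to 4.34) and Rnu12 2.51-fold higher (1.89 to 3.36). In the mRNA table the folds were 2.69 (1.998 to 3.66) for Rnu11 and 2.61 (2.13 to 3.22) for Rnu12, with 177 against 61 reads and 361 against 128 reads. Neither gene reached the 4-fold threshold used to call a feature, and in the mRNA table both intervals end below it.

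Among 3506 noncoding features with a value of at least 1 in either IP, 13.5% were at least 4-fold higher in the mutant IP and the median log2 ratio, with a pseudocount of 1, was 0.47. Many of those features have few reads. Among the 1206 features with at least 20 reads in both IPs, 7.88% were at least 4-fold higher and the median was 0.39. In that deeper set 118 features had a higher ratio than Rnu11 and 132 a higher ratio than Rnu12. The 3 fibroblast markers summed to 27 mock IP and 99 mutant IP reads, with Col1a2 at 1 and 0, the 2 endoderm markers to 1 and 20, the 2 mesoderm markers to 11 and 0, the 3 neural markers to 69 and 63, and the 9 stem cell markers to 2312 and 3465; their part in the results for U11 and U12 was not tested. In the deeper set 9.78% and 10.9% of features lay above U11 and U12, and over all 3506 features 23.6% and 26.6% did.

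The major spliceosome RNAs U1 and U2 were recovered with a larger fold than U11 and U12. U1, read as Rnu1a1, went from 1791 mock IP reads to 15488 mutant IP reads, a fold of 8.01 (7.62 to 8.41), and the U2 RNA Rnu2-10 from 202 to 2258, a fold of 10.4 (8.96 to 12.01). The fold of Rnu11 was 0.354 times that of Rnu1a1 (0.236 to 0.543) and the fold of Rnu12 0.313 times (0.235 to 0.421). Such a ratio of folds does not depend on how the libraries are scaled. Against Rnu2-10, the U2 counterpart of U12, the fold of Rnu12 was 0.242 times as large (0.176 to 0.337). With the paired rows summed, the ratios to Rnu1a1 were 0.339 (0.251 to 0.464) for Rnu11 with Gm28872 and 0.337 (0.272 to 0.419) for Rnu12 with Gm24525. The U1 copies Rnu1b1, Rnu1b2 and Rnu1b6 gave 7.33- to 7.43-fold, and copies of U1 are not independent of each other.

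U11 and U12 could not be told apart in this comparison. The fold of Rnu11 was 1.13 times that of Rnu12 (0.683 to 1.89) in the noncoding table and 1.03 times (0.713 to 1.49) in the mRNA table. Of the other snRNAs looked for, Rnu5g, a U5 RNA of both spliceosomes, had 7 mock IP reads and 21 mutant IP reads, a fold of 2.78 whose interval runs from 1.14 to 7.74. Rnu6 had 1 and 2 reads. No row is named Rnu4atac or Rnu6atac, the 2 snRNAs specific to the minor spliceosome beside U11 and U12, and they were not analysed here.

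The 2 inputs were compared to see whether the RNAs themselves differed between the transfections, and here U11 and U12 parted. Rnu12 was 2.49-fold higher in the mutant input (2.14 to 2.91), whereas Rnu11 was at 1.33 (1.25 to 1.41), a value that drops below 1 once libraries are scaled to equal totals. The mRNA table gave 2.43 (2.17 to 2.72) and 1.30 (1.25 to 1.36). The paired row Gm24525 gave 2.37 (2.01 to 2.80), but it was picked for its likeness to Rnu12 over these same libraries. Its fold is therefore not separate evidence. Since the median feature with at least 20 reads in both inputs was at 1.35-fold on the deposited scale, Rnu11 sat at the middle of the distribution, with 547 of 1053 features above it. Rnu12 had 42 of 1053, or 3.99%, above it, and 17.9% of all 2533 features measured between the inputs.

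Under the 3 other scalings run, Rnu12 stayed above 1 and Rnu11 did not. With libraries scaled to equal totals of the noncoding table, Rnu11 was at 0.952 and Rnu12 at 1.79, with equal totals over both tables they were at 0.947 and 1.78, and after centring on the median at 0.974 and 1.83. Free of scaling, the input fold of Rnu12 was 1.88 times that of Rnu11 (1.60 to 2.22), 1.796 times that of Rnu1a1 (1.54 to 2.10), 2.02 times that of Rnu2-10 (1.71 to 2.41) and 1.86 times that of the 7SL RNA Rn7s1 (1.59 to 2.17). It was 2.10 times that of Rmrp (1.79 to 2.47) and 1.94 times that of Rpph1 (1.66 to 2.28). The smallest ratio was to the 7SK RNA Rn7sk, at 1.59 (1.18 to 2.13). The input fold of Rnu11 was 0.955 times that of Rnu1a1 (0.898 to 1.01). At the 4-fold threshold neither gene was called, against a background of 4.46% of 2533 features higher. At 2-fold, a threshold added after the values were seen, Rnu12 was called and Rnu11 was not, against 29% of those 2533 features and 11.3% of the 1053 deeper ones. That call held on the deposited scale and was lost under each of the 3 other scalings, where Rnu12 was below 2. In bulk RNA, more cells with an RNA and more RNA per cell cannot be told apart, and with 1 library per transfection the spread between cultures is unknown.

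**Figure D2:**
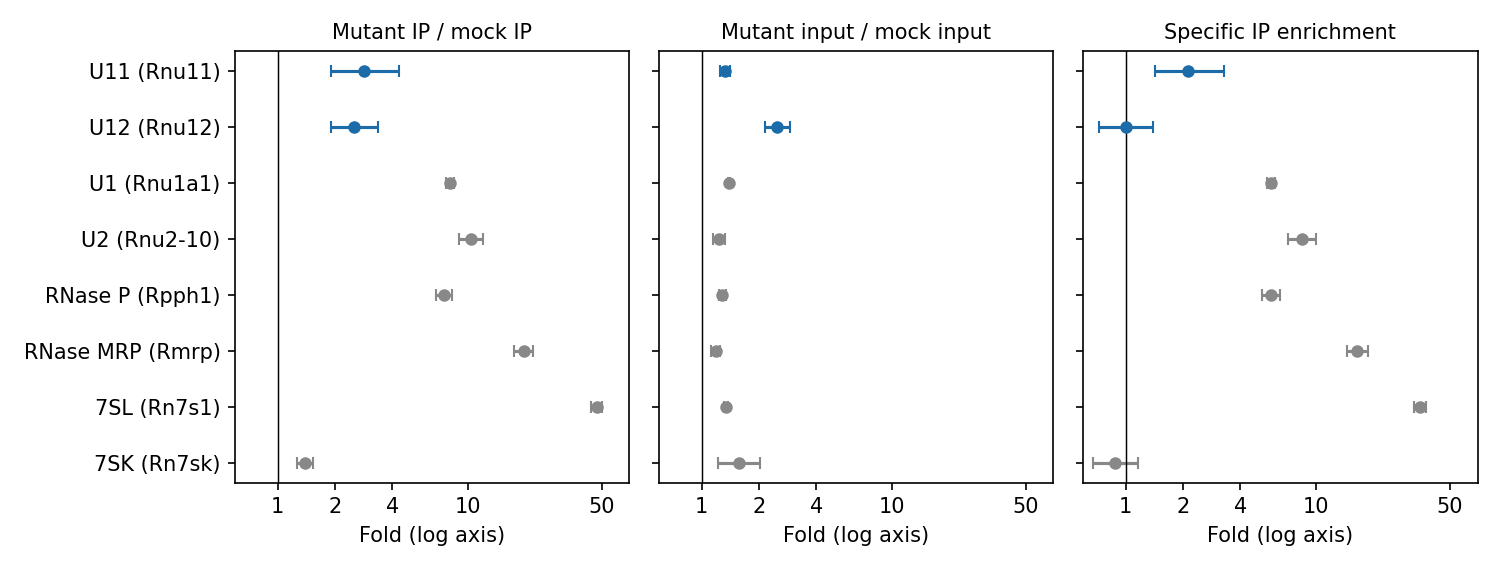
Folds between mutant IP and mock IP, between mutant input and mock input, and for the specific IP enrichment (log axes), for U11 and U12 (blue) and 6 other noncoding RNAs (grey), from 1 library per group in the noncoding table. Bars are exact 95% intervals of the reads; U12 stands at 2.49 between the inputs while the other 7 RNAs lie between 1.19 and 1.57 on the deposited scale (U11 falls below 1 with equal totals), and its specific enrichment is 1.01 against 2.14 for U11 and 5.76 for U1.

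Relative to input, the recovery of Rnu12 on the gel was the same in mutant and mock cells within counting error, and that of Rnu11 was low in both and higher in the mutant. In the mutant cells, Rnu12 in the IP stood at 0.262 times the input (0.220 to 0.311), and in the mock cells at 0.260 times (0.197 to 0.341). For Rnu11 the mutant cells gave 0.0315 times the input (0.0255 to 0.0385) and the mock cells 0.0147 times (0.0101 to 0.0208). U11 was therefore depleted from both IPs far more than U12. Rnu11 was 31.8-fold lower than in the input in the mutant and 67.8-fold lower in the mock, Rnu12 3.82- and 3.84-fold lower.

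Few noncoding RNAs had an IP over input ratio as low as that of U11, and only RNAs abundant in the input could. With at least 20 IP reads, or with the pseudocount of 1, a feature with few input reads cannot fall so low. The counts below are therefore not a rank among all noncoding RNAs. Among 912 features with at least 20 reads in the mock IP and the mock input, 3 had a lower ratio than Rnu11, and among 965 in the mutant libraries 13 did. Gm28872, the paired row of Rnu11, was among the lower ones, at 0.0120 in mock and 0.0244 in mutant cells. Over all features measured there, 59 of 3138 in the mock and 89 of 3406 in the mutant were lower. Rnu11 passed 4-fold lower in both conditions, against 12.8% of the deeper features in the mock and 12.5% in the mutant, or 10.7% and 10.3% of all features measured there. Rnu12 stayed just short of 4-fold in both, and its side of that line depends on the scaling: with equal totals over both tables it was at 0.220 in the mutant and 0.196 in the mock. In mock cells the U1 RNA Rnu1a1 was at 0.0244 (0.0233 to 0.0256), nearer to U11, and the U2 RNA Rnu2-10 at 0.141 (0.121 to 0.164), nearer to U12. In mutant cells they were elsewhere: Rnu1a1 was at 0.141 (0.138 to 0.143), nearer to U12, whose ratio was 1.86 times as high (1.56 to 2.21), and Rnu2-10 was at 1.19 (1.11 to 1.27), 4.54 times the ratio of U12 (3.77 to 5.47).

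**Figure D3:**
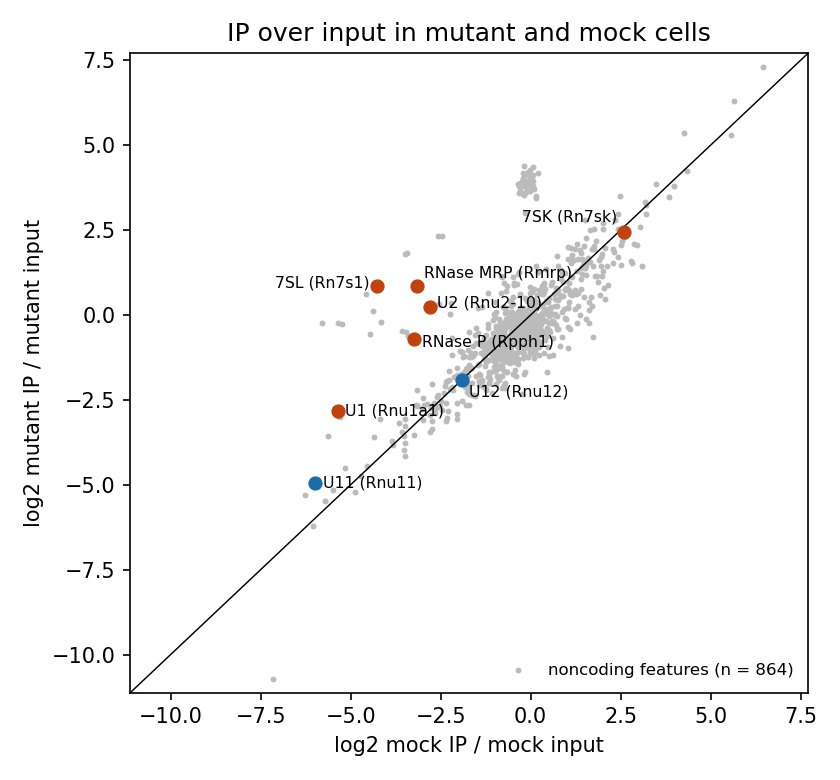
The log2 ratio of IP to input (pseudocount of 1) in the mock cells (x axis) and in the mutant cells (y axis) for 864 noncoding features with at least 20 reads in every library; the line marks equal ratios. U12 lies on the line at -1.90 and -1.92, U11 above it at -5.98 and -4.95, and U1, U2, RNase P, RNase MRP and 7SL lie farther above it.

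The specific IP enrichment divides the IP to input ratio of mutant cells by that of mock cells. It was 2.14 for Rnu11 (1.42 to 3.28) and 1.01 for Rnu12 (0.728 to 1.40). The mRNA table gave 2.06 (1.53 to 2.82) and 1.08 (0.850 to 1.37). The enrichment of Rnu11 was 2.12 times that of Rnu12, with a Wald 95% interval on the log scale from 8 read counts of 1.28 to 3.53, and 1.92 times in the mRNA table (1.32 to 2.79). Library scaling cancels in this ratio of the 2 genes.

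Neither RNA reached the enrichment of its major spliceosome counterpart. The enrichment of Rnu1a1, 5.76 (5.48 to 6.06), was 2.697 times that of Rnu11 (1.81 to 4.03). The enrichment of Rnu2-10, 8.399 (7.12 to 9.93), was 8.35 times that of Rnu12 (5.86 to 11.9). No gene of the pair passed 4-fold, against 13.3% of 3968 features, or 10.6% of the 864 with at least 20 reads in every library. In the latter set 13.7% of features lay above Rnu11 and 47.3% above Rnu12, and over all 3968 features 28.9% and 51.2% did. The noncoding RNAs that lie far above both include Rmrp, the RNA of RNase MRP, at 16.4, and Rpph1, the RNA of RNase P, at 5.78, while Rn7sk, an RNA that restrains transcription elongation, lay with U12 at 0.884 (0.675 to 1.16).

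The ratio of U11 to U12 reads within a library shows the same parting without any scaling. The mock input held 8.45 Rnu11 reads per Rnu12 read (7.44 to 9.63) and the mutant input 4.49 (4.06 to 4.97). The mock IP held 0.478 (0.306 to 0.734) and the mutant IP 0.540 (0.420 to 0.692). The size of such a ratio depends on the length of each RNA and on how its reads map, so only its change between libraries is read. It was higher in the mock input than in the mutant input and lower in both IPs than in either input, and the 2 IPs overlap. The IP over input fold of Rnu11 was 0.120 times that of Rnu12 in the mutant (0.0916 to 0.157) and 0.0566 times in the mock (0.0356 to 0.0890).

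**Figure D4:**
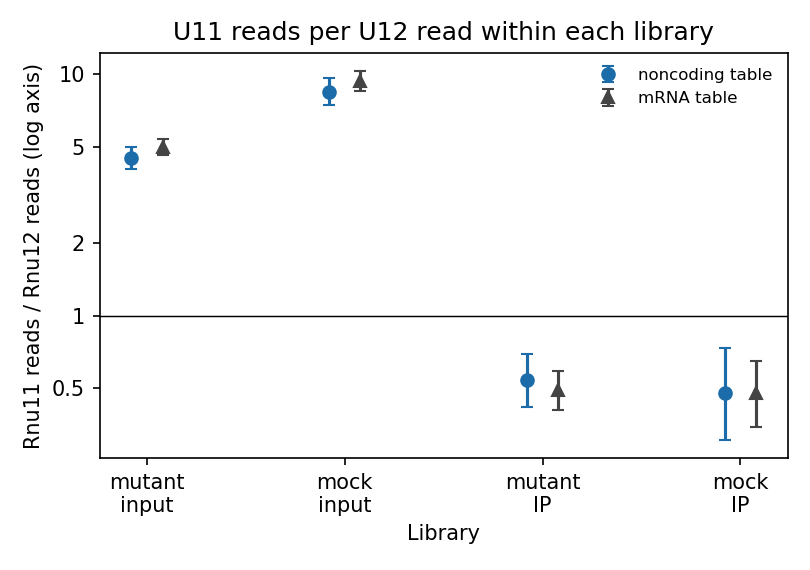
Rnu11 reads per Rnu12 read (log axis) in each of the 4 libraries, from the noncoding and the mRNA table; bars are exact 95% intervals. The ratio is 4.49 and 8.45 in the mutant and mock inputs and 0.540 and 0.478 in the IPs, where the intervals of the noncoding table overlap.

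Messenger RNAs of the proteins that work with U11 and U12 lay around the median of all mRNAs between the IPs, and most had few reads. Of 16 genes of the minor spliceosome list, 15 were measured between the IPs, 1 was past 4-fold towards the mutant IP and 1 towards the mock, and the median log2 ratio was 0.46. Over the 14273 features of the mRNA table measured between the IPs the median was 0.38. Of these, 10.1% were at least 4-fold higher and 5.74% at least 4-fold lower. The higher gene was Rnpc3, whose protein binds U12, with 0 mock IP reads and 20 mutant IP reads, at least 6.17-fold against a floor of 3 reads. The lower was Snrnp25, whose protein belongs to the U11 particle, with 5 reads against 26, a fold of 0.178 (0.0534 to 0.471). The deepest 3, Dhx15, Zrsr1 and Rbm41, were at 1.39-, 2.17- and 0.735-fold.

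Other lists of genes around these RNAs were counted past 4-fold too. Their counts are read against the same 10.1% higher and 5.74% lower of mRNA features measured between the IPs. Of the 8 Sm protein genes 0 were higher and 1, Snrpd1 with 2 reads against 31, was lower, with a median of 0.59; the deepest were Snrpn, Snrpd2 and Snrpb at 3.02-, 0.926- and 1.89-fold. Of 6 measured genes of the SF3B complex, which both spliceosomes use with U2 or U12, 0 were called in either direction and the median was 0.01, with Sf3b1, Sf3b2 and Sf3b3 at 1.48-, 0.837- and 0.964-fold. Of 31 measured genes for making snRNAs, 2 were higher and 0 lower, with a median of 0.42. They were Snupn, which carries snRNA particles into the nucleus, with 58 reads against 0 and at least 17.9-fold, and Ints6, of the Integrator complex that trims snRNAs, with 60 against 8 and 6.94-fold (3.31 to 16.8). The deepest of that list, Ints1, Ints3 and Snapc4, were at 1.24-, 2.79- and 1.91-fold. Of 10 genes for U1 and U2 proteins 0 were higher and 1, Snrpb2 with 0 reads against 10, was lower (named after its values were seen), with a median of -0.49; Snrnp70, Sf3a1 and U2af2 were at 1.36-, 0.909- and 0.819-fold. Of 12 measured genes with a U12-type intron 0 were called, with a median of 0.15; Thoc2, Nop2 and E2f1 were at 1.18-, 1.26- and 0.634-fold.

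Between the inputs these lists held few reads, and the genes past 4-fold there were named after their values were seen. Of the minor spliceosome list 8 genes were measured, with a median log2 ratio of -0.10. The genes past 4-fold were Zmat5, with 0 mock input and 7 mutant input reads, and Rbm41, with 20 and 2, a fold of 0.139 (0.0157 to 0.572). The deepest, Zrsr1, had 52 mock input reads and 28 mutant input reads, at 0.748-fold (0.455 to 1.21). Of the genes with a U12-type intron 11 were measured, with 0 to 19 reads per gene and library. Their median log2 ratio, with the pseudocount, was 1.08. That is the value of Matn1 and E2f2 (named after their values were seen), each with 2 mutant input and 0 mock input reads. The median is therefore set by the pseudocount and is not a measured fold. The cut at a value of 1 keeps 2 mutant input reads, at 1.11, and drops 2 mock input reads, at 0.8, as in E2f3. Msh3, with 0 mock input and 6 mutant input reads, was past 4-fold higher with the pseudocount and at least 2.78-fold higher against a floor of 3 reads. Hps1, with 16 and 0 reads, was past 4-fold lower with the pseudocount and at least 3.84-fold lower against that floor. Over all 9367 features of the mRNA table measured between the inputs the median log2 ratio was 0.51, while 10% were at least 4-fold higher and 4.74% at least 4-fold lower. The other lists had 1 higher and 1 lower of 6 Sm protein genes (Snrpg and Snrpd3), 0 of 4 SF3B genes, 0 higher and 2 lower of 20 genes for making snRNAs (Gemin2 and Gemin4), and 1 higher and 0 lower of 7 genes for U1 and U2 proteins (Sf3a1). Some genes were deeper. Snrnp70, of the U1 particle, had 218 mock input and 169 mutant input reads, at 1.08-fold (0.875 to 1.32). Ints1 had 52 and 37 reads, or deposited values of 20.8 and 20.56. Sf3b2 had 44 and 36 reads, or 17.6 and 20. Sf3b3, with fewer reads, had 22 and 39, at 2.46-fold (1.42 to 4.36).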

How the data were processed

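RNA sequencing was made from 4 libraries, 1 per group, so groups have no replicates. Reads were aligned with Bowtie to mm9, per the submitters' processing notes; no version, counter, strand setting or rule for multiply aligned reads is stated there or elsewhere in the sources used here. The unit the authors deposited is a signal, in 2 tables: 100% of values became whole reads, within 0.02 reads, when multiplied by the library's factor. Values were not rescaled. Symbols with several transcripts were represented by the one with the highest mean. Folds of members carry no pseudocount; calls over all features used log2(value + 1), features with a value of at least 1 in any library of the ratio, and 4-fold. Intervals for 2 counts were exact conditional binomial and for 4 counts exact conditional odds ratios (Python 3.11.15, scipy 1.17.1). Both were tested on simulated independent Poisson counts, the model they assume, which leaves out PCR copies and differences between cultures. Intervals for 8 counts were Wald intervals on the log scale and were not part of that test. Named genes were the 2 members, other spliceosomal snRNAs, reference RNAs, the 3 nearest profiles per member, and per list the 3 genes with most IP reads and those past 4-fold between the IPs with at least 20 reads in 1 IP; others are said to be named after their values were seen. The members and lists were chosen with earlier results of these data known. Names and neighbours came from a RefSeq gene table of assembly GRCm38, a build other than the authors', so no coordinates are given. By symbol, 0 of the 2 members matched the RefSeq sequence tables.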

Additional observations from a re-analysis of the deposited data

How the results depend on the processing

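In all, 18 results were recomputed under 96 alternatives, of which 71 left the result within its 95% interval or within 1.5 times its count, 25 moved it further and 0 reversed a called value. With equal totals of the noncoding table, IP over input in mutant cells was 0.0408 for Rnu11 and 0.339 for Rnu12; Rnu12 was at 1.84 between the IPs and 1.79 between the inputs, and Rnu11 at 0.952 between the inputs. With equal totals over both tables Rnu11 was at 0.947 and Rnu12 at 1.78 between the inputs, and IP over input of Rnu12 was 0.220 in mutant and 0.196 in mock cells. Centred on the median, IP over input in mutant cells was 0.0435 for Rnu11 and 0.362 for Rnu12, the inputs gave 0.974 and 1.83, and Rnu12 was at 1.85 between the IPs. The construction of these alternatives, which change only library scaling, sets these shifts. Counts of noncoding features at least 4-fold apart in either direction fell from 685 to 96 between the IPs, 1228 to 205 and 1072 to 155 for IP over input in mutant and mock, 158 to 9 between the inputs and 871 to 97 for the specific enrichment with at least 20 reads in every library of the ratio, which tests fewer features. With a pseudocount of 5 they were 110, 435, 333, 5 and 150, and 2-fold in place of 4-fold gave 1079 between the inputs. The mRNA table rows, the sums with Gm28872 or Gm24525 and the 2-fold threshold were chosen after seeing the data. No paired analysis was possible because each group is 1 library. The 33 reads of Rnu11 in the mock IP limit the precision of its folds.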

Other observations

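The genes beside Rnu11 and Rnu12 were chosen after the members' values were seen. Poldip3, the neighbour of Rnu12 that encodes a protein binding a DNA polymerase, had 25 and 23 reads in the mock and mutant inputs and 175 and 238 in the mock and mutant IPs. Its IP over input fold was 6.90 in mutant cells (4.49 to 11.1) and 7 in mock cells (4.59 to 11.1), where Rnu12 was below its input in both. The median over all measured mRNAs was 5.44 in mutant and 5 in mock cells, and 3.08 and 3.38 with at least 20 reads in both libraries. Between the inputs Poldip3 was at 1.28 (0.693 to 2.35) and Cyb5r3, on the other side of Rnu12, at 1.39 (0.809 to 2.38), with 30 reads each. Gm28874, the lncRNA next to Rnu11, had IP over input folds of 6.67 in mutant cells (4.04 to 11.7) and 3.19 in mock cells (2.05 to 5.11). The median noncoding feature was at 1.87 and 1.73, and at 0.748 and 0.793 among those with at least 20 reads in both libraries. With 17 mutant input reads, Gm28874 is not in that deeper set for the mutant cells. The specific enrichment of Gm28874 was 2.09, on an interval from 1.03 to 4.32. Taf12, on the other side, had 18 mutant IP reads and 0 in each other library, so its recovery in mock cells cannot be read.

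Other rows with profiles near the members differed from them in the input comparison. Gm10062 and Gm17300, near Rnu11, were at 1.66 (1.59 to 1.74) and 1.87 (1.78 to 1.97) between the inputs, against 1.33 for Rnu11. Gm17146, near Rnu12, was at 3.15 (2.55 to 3.91) between the inputs and at 0.557 in the specific enrichment (0.373 to 0.836). Gm12207 was at 1.92 (1.46 to 2.55) between the inputs and 1.22 in the specific enrichment (0.702 to 2.16).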
